A study of Mus musculus musculus x M. m. domesticus and Mus musculus domesticus and Mus musculus with 12 samples.

Results

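The testis transcriptome was compared between F1 males that had a domesticus father and F1 males that had a musculus father, with the subspecies of the mother kept in the model. All 12 arrays of the study entered, 6 with a domesticus father and 6 with a musculus father, and 7000 genes were measured on each. The crosses, written mother first, were DxD (LEWES/EiJ mother, WSB/EiJ father), MxD (PWK/PhJ mother, LEWES/EiJ father), MxM (PWK/PhJ mother, CZECHII/EiJ father) and DxM (LEWES/EiJ mother, PWK/PhJ father), with 3 males each. MxD males were sterile and the other 3 crosses gave fertile males. All males were untreated and 60 days old, and the RNA came from whole testis. One array was hybridised per male.

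A male receives its X chromosome and its mitochondria from the mother and its Y chromosome from the father, and both parents give it a set of autosomes. Within each maternal background the males compared here therefore had the same X and mitochondria: DxM and DxD males shared a LEWES/EiJ mother, and MxM and MxD males shared a PWK/PhJ mother. What differed was the Y chromosome, the paternal set of autosomes and, at imprinted genes, the paternal mark. These cannot be told apart, and neither can subspecies and strain, because WSB/EiJ is replaced by PWK/PhJ with domesticus mothers and LEWES/EiJ by CZECHII/EiJ with musculus mothers. With musculus mothers the father also separates the sterile cross from a fertile one. Whole testis mixes somatic cells, mitotic spermatogonia, meiotic spermatocytes and postmeiotic spermatids, so its RNA follows the cell types it holds as well as the level in each cell. The array was designed from a laboratory mouse of mostly domesticus origin, so a probe that binds a musculus transcript less well cannot be told apart from a lower level.

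Values are log2 signals, and a paternal difference is the mean with a musculus father minus the mean with a domesticus father. Across all 12 males, the quantile-normalized values ran from 3.08 to 13.26 with a median of 8.14. The males of one cross did not vary alike. The mean variance within a cross was 0.0147 in DxD, 0.0203 in DxM, 0.0278 in MxD and 0.0879 in MxM. In MxM replicate 3, 131 genes read lower than in any other male by 1 log2 unit or more. The same count was not made for the other males or for higher values. Of these 131 genes, 3 were in the class limited to the pair with the sterile cross, defined below. None was among the genes called with both mothers in the same direction.

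With the mothers weighted equally, 1478 genes (21.1%) differed by the father's subspecies at an adjusted p under 0.05 in limma, 849 (12.1%) higher and 629 (8.99%) lower with a musculus father. Within domesticus mothers 844 genes (12.1%) were called, 409 (5.84%) higher and 435 (6.21%) lower in DxM than in DxD. Within musculus mothers 2122 genes (30.3%) were called, 1211 (17.3%) higher and 911 (13%) lower in MxM than in MxD. The paternal difference itself changed with the mother in 1487 genes (21.2%), 832 (11.9%) with the more positive and 655 (9.36%) with the more negative difference under musculus mothers. The median absolute difference was 0.13 with domesticus mothers and 0.20 with musculus mothers.

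The order of the maternal backgrounds depended on how the spread was estimated. When each background was fitted on its own 6 arrays, 1249 genes were called with domesticus mothers and 1048 with musculus mothers. Deviations of same-numbered males correlated at 0.754 with domesticus and 0.638 with musculus mothers in replicate 1, and at 0.428 or less in the others. The labels state no pairing. The counts were 1584 and 3076 when the replicate number entered as a block. The count for domesticus mothers was 448 without DxD replicate 2, 491 without DxD replicate 3, 539 without DxM replicate 1 and 548 without DxM replicate 2.

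**Figure D1:**
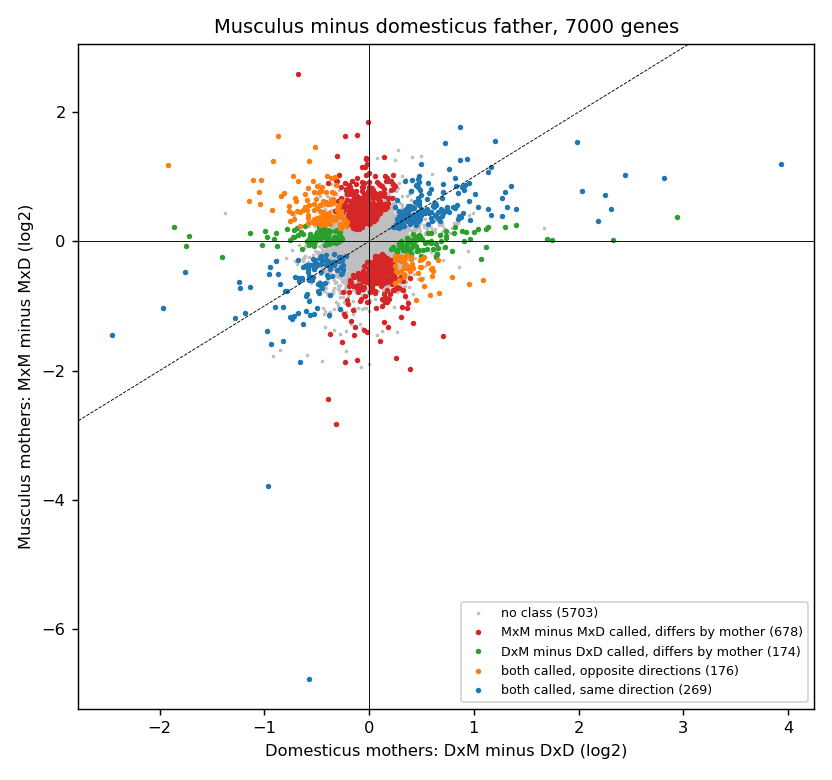
Each point is one of 7000 genes, with the paternal difference under domesticus mothers (DxM minus DxD) on the x axis and under musculus mothers (MxM minus MxD) on the y axis, both in log2 units; colours mark the classes given by the tests and the dashed line marks equal differences. The 269 genes called with both mothers in the same direction lie in the upper right and lower left, and the 678 genes called only with musculus mothers lie along the vertical axis.

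A paternal difference called with both mothers and in the same direction was found in 269 genes (3.84%), 163 of them (2.33%) higher and 106 (1.51%) lower with a musculus father. They were 31.9% of the genes called with domesticus mothers and 12.7% of those called with musculus mothers. The contrasts behind these calls share no array. The averaged difference had a median of 0.52 in the genes that were higher and ranged from 0.22 to 2.56. In the genes that were lower the median was -0.53 and the range ran from -3.67 to -0.23. It reached 1 log2 unit in 28 genes, 17 higher and 11 lower.

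For 77 of these 269 genes the 6 males with a musculus father did not overlap the 6 with a domesticus father, 54 above and 23 below. Over all 7000 genes, 180 (2.57%) had no overlap. The same arrays chose the 269 genes, so nothing follows from their larger share. In 249 of the 269 genes the means of both hybrids lay between those of DxD and MxM. Calls in the same direction already fix part of this order, and the share over all genes was not counted. The step differed by mother in 46 genes. Of the 28 of these that were higher with a musculus father, 18 had the larger step with domesticus mothers, and of the 18 that were lower, 12 had the larger step with musculus mothers. With a block for the replicate number 510 genes were called with both mothers, and all 269 were among them. When each background was fitted alone the count was 190, and it was 155 without DxD replicate 2 and 169 without DxD replicate 3.

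In 147 of the 269 genes the mother's subspecies was also called in the same direction under both fathers. The mother was called in 31% of all 7000 genes under domesticus fathers and in 16.9% under musculus fathers, and these tests used the same arrays as the paternal ones. One of these, ENSMUSG00000026096, lies on chromosome 1 and was classed by the study as meiotic. It read 8.76, 8.98 and 9.04 in DxD, 7.80, 8.03 and 8.08 in DxM, 7.79, 8.05 and 8.03 in MxD, and 4.53, 3.72 and 4.29 in MxM. Every hybrid male lay between the DxD and MxM males, and the hybrids overlapped each other. The paternal difference was -0.96 ± 0.18 (SE) with domesticus mothers and -3.78 ± 0.18 with musculus mothers. The adjusted p of limma was 0.00458 for the first, 4.14e-07 for the second and 5.07e-05 for the change between them.

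ENSMUSG00000026414, also on chromosome 1 and classed as mitotic, went the other way. Its values were 4.82, 4.86 and 4.65 in DxD, 6.86, 6.61 and 6.82 in DxM, 5.78, 5.69 and 5.67 in MxD, and 7.10, 7.09 and 7.55 in MxM. The 6 males with a musculus father were all above the 6 with a domesticus father, and the averaged difference was 1.76 ± 0.09 (adjusted p = 2.39e-07 in limma). Here the hybrids did not overlap, since DxM males were all higher than MxD males. ENSMUSG00000049160, a postmeiotic gene of chromosome 1, was higher by 1.11 ± 0.21 on average, and ENSMUSG00000026163, a meiotic gene of the same chromosome, was lower by 1.26 ± 0.12. The files do not pair these identifiers with gene names. They were picked after the values were seen, as the genes of largest averaged difference in each direction among those with a stated cell type.

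A further 25 of the 269 (0.357% of all genes) followed the father: the paternal difference was called with both mothers in the same direction, and the mother's subspecies gave an unadjusted p of 0.05 or more under both fathers. They were 17 higher and 8 lower with a musculus father, and their absolute averaged difference ran from 0.26 to 1.06 with a median of 0.38. In 18 of them the 6 males of one kind of father did not overlap the other 6, beside 2.57% of all genes. DxM and MxD males carry the same parental strains in opposite roles. Their difference was called in 11 of the 25 genes after adjustment and in 22 at an unadjusted p under 0.05, beside 455 of all 7000 genes (6.5%) after adjustment and 1528 (21.8%) unadjusted. These arrays also chose the genes, so nothing follows from the shares. A p above the threshold does not show that the mother had no effect.

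ENSMUSG00000079421, on chromosome 2, had the largest difference of the genes that followed the father. Its mean was 6.11 ± 0.10 (SD, n = 3) in DxD and 5.96 ± 0.12 in MxD, and it was 6.98 ± 0.03 in DxM and 7.22 ± 0.36 in MxM. All males with a musculus father thus lay above all those with a domesticus father, by 0.87 ± 0.15 with domesticus and 1.26 ± 0.15 with musculus mothers (adjusted p = 0.0030 and 0.000144 in limma). The difference between mothers was -0.16 (95% interval -0.48 to 0.16) with domesticus fathers and 0.24 (-0.08 to 0.56) with musculus fathers.

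ENSMUSG00000038085, a postmeiotic gene of chromosome 2, was higher with a musculus father by 0.56 ± 0.10 and 0.50 ± 0.10 in the respective backgrounds. Lower values with a musculus father were measured for ENSMUSG00000008200 on chromosome 2, by -0.58 ± 0.12 and -0.60 ± 0.12, and for ENSMUSG00000050875, by -0.59 ± 0.10 and -0.43 ± 0.10. The DxM and MxD males overlapped for ENSMUSG00000008200. A chromosome was stated for 10 of the 25 genes and a cell type for 4, of which 3 were postmeiotic and 1 was somatic. The count was 62 with the replicate block and 72 with array weights, and it fell to 14, 8 and 11 without DxD replicates 1, 2 and 3, to 16, 12 and 11 without DxM replicates 1, 2 and 3, and to 14 without MxD replicate 3.

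**Figure D2:**
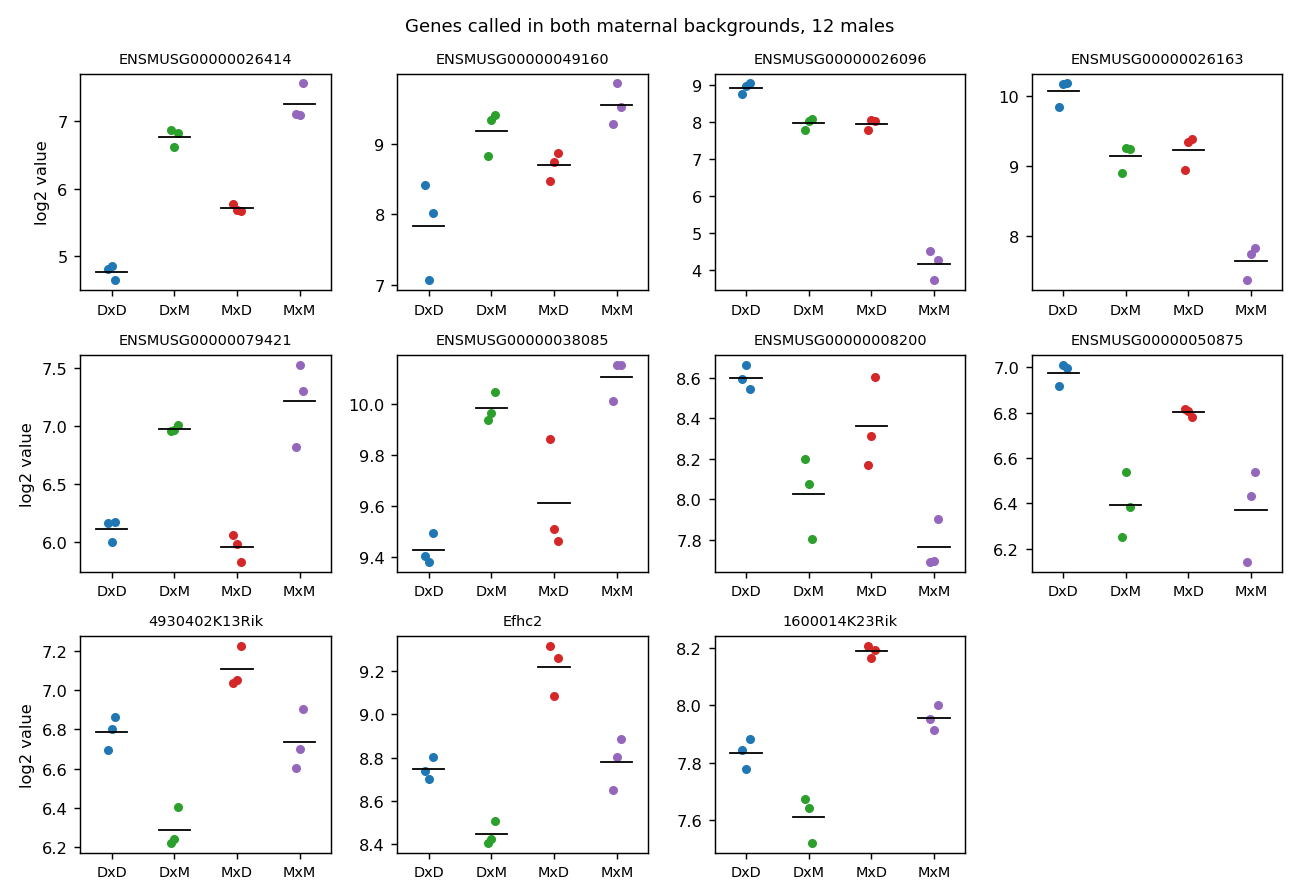
Log2 values of the 12 males (points) and cross means (bars) for the 11 genes described that were called with both mothers; the y axis differs by panel and the crosses are on the x axis. For ENSMUSG00000026414 and ENSMUSG00000079421 all DxM and MxM males lie above all DxD and MxD males, and in the X-linked genes of the bottom row MxD males are highest and DxM males lowest.

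Of the 45 genes that could be named, 3 were called with both mothers, and all 3 were X-linked and lower with a musculus father. These 45 genes were chosen by the study on these same males as tied to sterility. By the study's tests MxD differed from DxM and from a cross within a subspecies, with its mean outside the 3 fertile means. Their calls and directions here, with either mother or between mothers, are therefore no independent evidence. Efhc2, which codes for a protein with EF-hand domains, read 8.74, 8.70 and 8.80 in DxD, 8.40, 8.42 and 8.51 in DxM, 9.32, 9.08 and 9.26 in MxD, and 8.65, 8.80 and 8.88 in MxM. MxD males were the highest and DxM males the lowest, while DxD and MxM overlapped. The paternal difference was -0.30 ± 0.08 with domesticus and -0.44 ± 0.08 with musculus mothers (adjusted p = 0.0342 and 0.00251 in limma), with no call for the change between them (adjusted p = 0.445). Calls with domesticus mothers among these X-linked genes depended on single males, as given with the 32 X-linked genes.

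In 4930402K13Rik, MxD was again the highest cross and DxM the lowest. It was at 6.70, 6.80 and 6.86 in DxD, 6.22, 6.24 and 6.41 in DxM, 7.04, 7.05 and 7.23 in MxD, and 6.60, 6.70 and 6.90 in MxM, for differences of -0.50 ± 0.09 and -0.37 ± 0.09. For 1600014K23Rik the differences were -0.22 ± 0.06 and -0.23 ± 0.06. In each of the 3 genes the domesticus-father males were above the musculus-father males of the same mother, but DxD males were not above MxM males.

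A paternal difference limited to the pair that holds the sterile cross was found in 678 genes (9.69%). They were called in MxM minus MxD and in the change between mothers, and gave an unadjusted p of 0.05 or more in DxM minus DxD. Of these, 383 (5.47%) were higher in MxM, with a median of 0.50, and 295 (4.21%) were lower, with a median of -0.52. The difference reached 1 log2 unit in 42 genes. The count was 1104 with the replicate block, which kept 560 of the 678 genes, and 441 without MxD replicate 3. It was 724 without MxM replicate 3.

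Either member of the pair could carry the difference. In 320 of the 678 genes (47.2%) all MxD males lay outside the range of the 9 fertile males, 154 above and 166 below. The share over all 7000 genes was 11%, with 5.47% above and 5.57% below. In another 230 genes MxM males alone lay outside the range of the other 9 males, and in 128 neither did. Both held in 75 genes. With those 75 genes included, MxM males lay outside in 305 of the 678 genes (45.0%), beside 15.8% of all genes. The share of all genes with MxM alone outside was not counted. The same arrays defined the class, so the larger shares within it follow in part from its definition. Of the 42 genes with a difference of at least 1 log2 unit, 13 had MxD males apart from the fertile males and 25 had MxM males alone apart. The class therefore holds genes in which the sterile males did not stand apart from the fertile ones.

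Among the genes with MxD males apart, ENSMUSG00000035295 of chromosome 2, classed as postmeiotic, had the largest difference upward in MxM. It read 7.24, 7.19 and 7.13 in MxD, while DxD read 7.80, 7.61 and 7.72, DxM 7.81, 7.67 and 7.81, and MxM 8.28, 8.16 and 8.18. DxM and DxD overlapped, with a difference of 0.06 (95% interval -0.11 to 0.22). MxM minus MxD was 1.02 ± 0.07 (adjusted p = 9.63e-06 in limma). For ENSMUSG00000033767, a postmeiotic gene of chromosome 3, the differences were 0.01 ± 0.07 and 0.75 ± 0.07. In the other direction, ENSMUSG00000026879, a mitotic gene of chromosome 2, was at 8.32, 8.34 and 8.61 in MxD and at no more than 8.03 in any fertile male, for differences of 0.15 ± 0.15 and -0.93 ± 0.15. ENSMUSG00000026043, a mitotic gene of chromosome 1, differed by 0.18 ± 0.25 and -1.32 ± 0.25.

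The autosomal genes with names gave 5 members of this class. Usp48, a deubiquitinating enzyme on chromosome 4, and Dnmt3a, a DNA methyltransferase that sets new methylation marks, on chromosome 12, were lower in MxD. Usp48 read 7.49, 7.52 and 7.56 in MxD against 7.90, 8.03 and 8.01 in MxM, 7.85, 7.92 and 7.85 in DxD, and 7.78, 7.91 and 7.82 in DxM. No fertile male was as low as any MxD male. Its paternal difference was 0.46 ± 0.07 with musculus mothers (adjusted p = 0.000517 in limma) and -0.04 (95% interval -0.18 to 0.11) with domesticus mothers. Dnmt3a read 5.08, 4.96 and 5.06 in MxD and 5.40, 5.30 and 5.32 in MxM, a difference of 0.30 ± 0.06. With domesticus mothers it was -0.10 (-0.23 to 0.04). The difference with musculus mothers was 0.19 under cyclic loess (adjusted p = 0.0498 in limma).

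Cyp17a1 of chromosome 19, an enzyme of androgen synthesis in the Leydig cells of the testis, was listed by the study with the postmeiotic genes. It read 11.23, 11.17 and 11.29 in MxD, 9.69, 9.54 and 10.69 in MxM, 9.84, 10.61 and 9.97 in DxD, and 10.61, 10.68 and 10.40 in DxM. MxD males were above all others, and MxM replicate 3 lay at the upper end of the DxM males. The difference was -1.26 ± 0.27 with musculus mothers (adjusted p = 0.00526 in limma) and 0.42 (95% interval -0.17 to 1.01) with domesticus mothers. Without MxM replicate 3 the former was -1.62. Spinlw1, a protease inhibitor of the male tract, on chromosome 2, and BC048507 on chromosome 13 had differences of -0.56 ± 0.08 and -0.42 ± 0.08 with musculus mothers.

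The 32 X-linked genes, all postmeiotic by the study's classes, had been chosen on these same males for higher values in MxD. Their counts in either background or between mothers are thus no independent evidence. All 32 were lower in MxM than in MxD. The difference was called in 25 of the 32 and ran from -0.78 to -0.12 with a median of -0.43. Over all 7000 genes 30.3% were called (13% lower) and the median was 0.01. With domesticus mothers 22 of the 32 were lower in DxM than in DxD, with a median of -0.06 and a range of -0.50 to 0.25, beside 0.00 over all genes. There, 3 genes were called, all lower, beside 12.1% of all genes (6.21% lower). At an unadjusted p under 0.05 there were 7 lower and none higher. The 3 calls became 7 with the replicate block and 7 with array weights, and 1 when any one DxD or DxM male, or MxM replicate 2, was left out. The change between mothers was called in 13 of the 32, beside 21.2% of all genes, each with the more negative difference under musculus mothers (9.36% of all genes), and those 13 were all in the class limited to the pair with the sterile cross. The number called in MxM minus MxD was 22 without MxD replicate 3 and 30 without MxM replicate 3. The number limited to the pair with the sterile cross was 8 without DxM replicate 2.

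Per male, the mean over these 32 genes was 9.33, 9.38 and 9.38 in MxD. It was 8.76, 8.95 and 9.04 in MxM, 8.68, 8.71 and 8.78 in DxD, and 8.57, 8.71 and 8.66 in DxM. No fertile male reached the level of an MxD male, and DxD and DxM overlapped. In 27 of the 32 genes all MxD males were above all 9 fertile males, beside 5.47% of all genes. The study picked these 32 genes on the same arrays for raised MxD values. The gap between MxD and fertile males is therefore no independent evidence, in this count or in the means per male.

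Single members ranged from no measurable change with domesticus mothers to a change shared by both. 1700025D03Rik read 9.43, 9.47 and 9.36 in MxD and between 8.60 and 8.88 in the fertile males, with differences of -0.13 ± 0.08 and -0.69 ± 0.08 in the respective backgrounds (adjusted p = 0.306 and 0.000107 in limma). Fmr1nb, named as the neighbour of Fmr1, read 8.46, 8.51 and 8.30 in MxD and between 7.74 and 7.98 in the others, with differences of 0.10 ± 0.08 and -0.56 ± 0.08. Cypt3, a cysteine-rich protein of the perinuclear theca of the sperm head, gave 0.21 ± 0.13 and -0.62 ± 0.13. Its relative Cypt5 gave 0.08 ± 0.10 and -0.39 ± 0.10. The differences of 4933400A11Rik were -0.19 ± 0.12 and -0.78 ± 0.12, those of Gm364 were 0.25 ± 0.17 and -0.72 ± 0.17, those of 4930557A04Rik were -0.01 ± 0.12 and -0.63 ± 0.12, and those of 4930403L05Rik were -0.05 ± 0.09 and -0.61 ± 0.09.

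Between these ends stood 1700013H16Rik, the X-linked gene with the largest averaged difference (-0.56 ± 0.09). It read 8.64, 8.47 and 8.77 in MxD, 7.99, 8.15 and 8.23 in DxD, 7.58, 7.85 and 7.89 in DxM, and 7.65, 7.95 and 7.99 in MxM. It was the one gene of the 32 in which all 6 males with a musculus father lay below all 6 with a domesticus father, although DxD replicate 1 and MxM replicate 3 both round to 7.99. The call failed with domesticus mothers (-0.35 ± 0.12, adjusted p = 0.0921 in limma). Cylc1, which codes for a protein of the sperm head cytoskeleton, had differences of -0.15 ± 0.14 and -0.61 ± 0.14, and Piga, an enzyme of membrane anchor synthesis, had -0.12 ± 0.11 and -0.26 ± 0.11 with neither called.

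**Figure D3:**
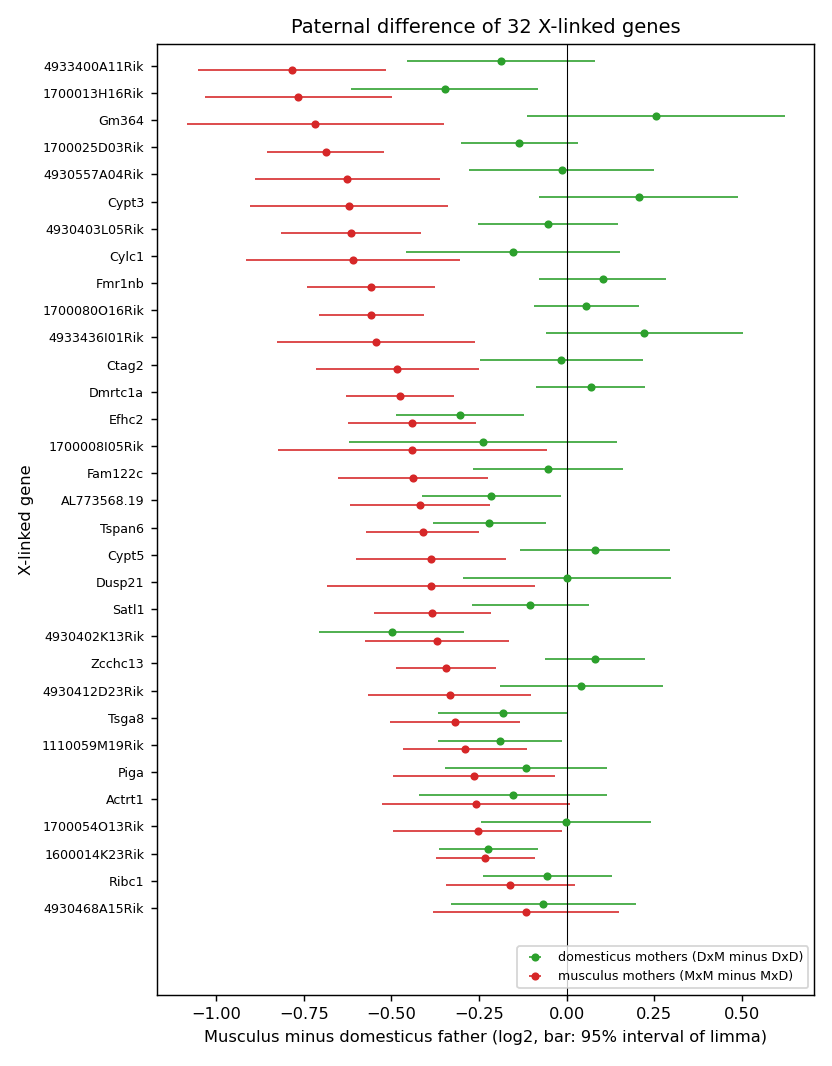
Paternal difference (musculus minus domesticus father, log2, x axis) of the 32 X-linked genes (y axis) with domesticus mothers (green) and musculus mothers (red); bars are 95% intervals of limma. All red points are below 0, with a median of -0.43, and the green points spread on both sides of 0, with a median of -0.06.

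**Figure D4:**
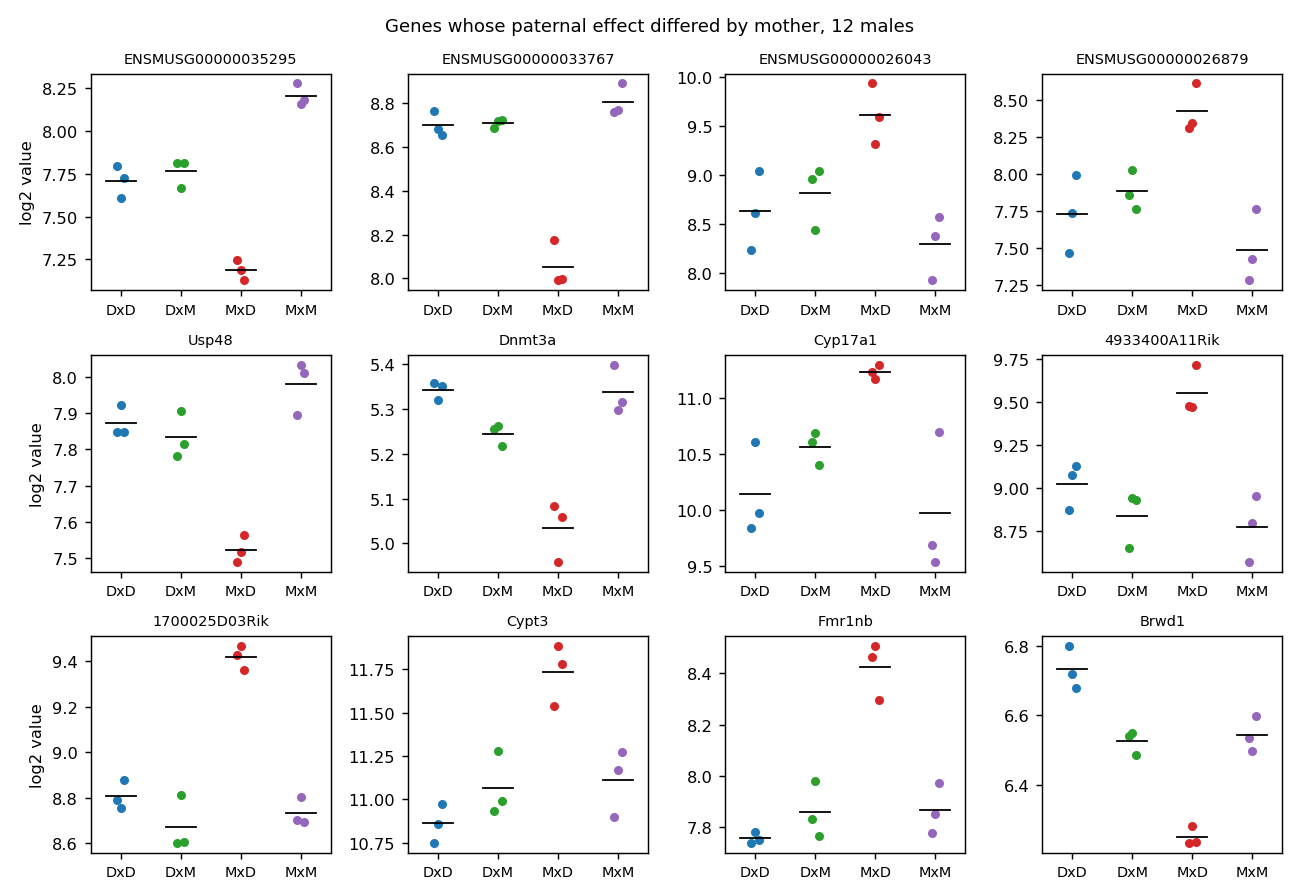
Log2 values of the 12 males (points) and cross means (bars) for 12 genes whose paternal difference changed with the mother; the y axis differs by panel and the crosses are on the x axis. MxD males lie outside the range of the 9 fertile males in every panel, below in Usp48, Dnmt3a, Brwd1 and the postmeiotic genes of the top row and above in the rest.

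Opposite paternal differences were called in 176 genes (2.51%). In 120 of them (1.71%) both hybrids were lower than the cross within a subspecies that shared their mother, and in 56 (0.8%) both were higher. Brwd1, a bromodomain protein on chromosome 16 that is needed in germ cells, was the one named gene among them. It read 6.80, 6.72 and 6.68 in DxD, 6.54, 6.55 and 6.49 in DxM, 6.23, 6.28 and 6.24 in MxD, and 6.53, 6.50 and 6.60 in MxM. DxM males were below DxD males and MxD males below all others. The differences were -0.21 ± 0.06 (adjusted p = 0.0478 in limma) and 0.29 ± 0.06 (adjusted p = 0.0046).

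Meg3, an imprinted RNA expressed from the maternal allele, lies on chromosome 12 and read 5.49, 5.48 and 5.34 in MxD, 5.80, 5.58 and 5.81 in MxM, 5.83, 5.98 and 5.82 in DxD, and 5.97, 5.73 and 5.76 in DxM. MxD males were below all others. MxM minus MxD was 0.29 ± 0.09 (adjusted p = 0.0344 in limma), and the adjusted p for the change between mothers was 0.0798. The former was not called without MxM replicate 1, MxM replicate 3, MxD replicate 2 or MxD replicate 3 (adjusted p = 0.0849, 0.0838, 0.0549 and 0.123).

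A difference limited to domesticus mothers was found in 174 genes (2.49%), 79 (1.13%) higher in DxM with a median of 0.50 and 95 (1.36%) lower with a median of -0.45. None of the 45 named genes was among them. The count was 341 with the replicate block, and 93, 106, 113 and 111 without DxD replicate 2, DxD replicate 3, DxM replicate 1 and DxM replicate 2.

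The study's first gene list, as used here, gave a cell type class for 1102 genes, all on chromosomes 1 to 5, and the counts that follow are over these. Mitotic genes made up 61 of the genes limited to the pair with the sterile cross, and 59 of these were higher in MxD than in MxM. This was 16.6% of the 367 mitotic genes, beside 11.9% of all 1102 genes with a class. Postmeiotic genes made up 40, and 37 of these were lower in MxD, or 14.9% of 269 for the class. For meiotic genes the class held 21 of 324 (6.48%), 16 of them lower in MxD, and for somatic genes 9 of 142 (6.34%), 6 of them higher in MxD. All MxD males lay above the fertile males in 39 of the 61 mitotic genes and below them in 21 of the 40 postmeiotic genes. Among all 131 genes of the class with a cell type, they lay above in 45 and below in 26. Over all 7000 genes the shares were 5.47% above and 5.57% below. The same arrays defined the class, so nothing follows from the larger shares. The 59 mitotic genes became 38, 39, 35 and 32 without DxD replicate 1, DxD replicate 3, MxM replicate 2 and MxD replicate 3.

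The genes called with both mothers were 3.81% of the 1102 genes with a class. They held 14 meiotic genes (4.32% of the class; 6 higher and 8 lower with a musculus father), 15 postmeiotic (5.58%; 10 higher and 5 lower), 8 somatic (5.63%; 5 higher and 3 lower) and 5 mitotic (1.36%; 2 higher and 3 lower). Whether these shares differ was not tested. The 15 postmeiotic genes became 23 with the replicate block and 9 without DxD replicate 3, and the 5 mitotic genes became 14 with the block, 19 with array weights and 1 without the dimmest genes. Genes limited to domesticus mothers were 2.54% of the 1102. They held 10 postmeiotic genes (3.72% of the class), 9 of them lower in DxM, and 9 meiotic genes (2.78%), 8 of them lower. The 6 mitotic (1.63%) and 3 somatic genes (2.11%) of this class were higher in DxM. These counts are small and the shares lie near that of all genes with a class. Of the genes with opposite differences (3.27% of the 1102), 12 of 13 postmeiotic genes were lower in both hybrids and all 10 mitotic genes were higher in both hybrids.

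The median paternal difference of the mitotic genes was 0.09 with domesticus and -0.19 with musculus mothers, and that of the postmeiotic genes was 0.00 and 0.22. Taking each gene relative to its mean over the 12 males, the mitotic genes were at 0.14, 0.10 and 0.22 in the MxD males and at no more than 0.02 in any fertile male. Postmeiotic genes were at -0.11, -0.18 and -0.22 in MxD and at 0.03 or more in each fertile male. In DxD the mitotic genes were at -0.14, -0.08 and -0.09, all below the DxM males (-0.01, 0.02 and -0.02). Meiotic genes were highest in DxD (0.08, 0.07 and 0.06). In bulk tissue fewer cells of a type and less RNA per cell cannot be told apart, and the part of cell type shares in the classes above was not tested.

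**Figure D5:**
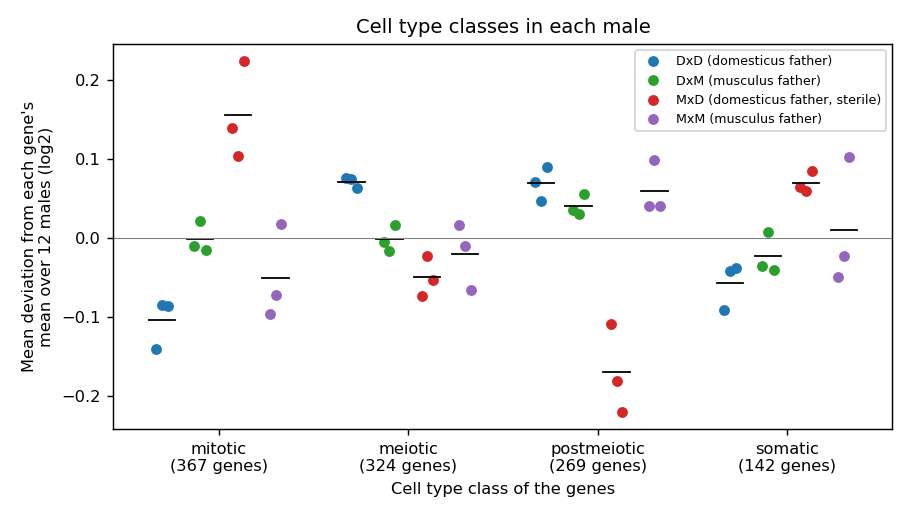
Mean deviation of the genes of each cell type class from their means over 12 males (y axis, log2) in each male (points), by cross, with cross means as bars; the number of genes is under each class. MxD males are highest for mitotic genes (0.10 to 0.22) and lowest for postmeiotic genes (-0.22 to -0.11), and MxM replicate 3 is the highest male for somatic genes.

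By chromosome, the averaged paternal difference was called in 21.1% to 23.3% of the genes of chromosomes 1 to 5. Genes called with both mothers were 5.06% of chromosome 1, 3.06% of chromosome 2, 6.09% of chromosome 3, 4.14% of chromosome 4 and 3.05% of the genes at hand of chromosome 5. Those limited to the pair with the sterile cross were between 9.17% and 11.2%.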

How the data were processed

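Whole testis RNA of 12 males was hybridised to Affymetrix mouse genome arrays, 1 per male. To obtain a value per Ensembl gene the authors applied PLIER to probe sets redefined by BRAINARRAY, dropped genes that any male failed to express detectably, and then quantile normalized. The deposited log2 values received no further scaling. Precision is limited by the number of arrays, which have no read depth.

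A limma model (version 3.58.1, R 4.3.3) with 1 coefficient per cross and 1 spread per gene shared by the 4 crosses gave both paternal contrasts, their mean and their difference. Tests were two-sided, with Benjamini-Hochberg adjustment over 7000 genes at 5%. The steps were tested on simulated data with independent males and 1 spread per gene shared by the crosses. The larger variance within MxM and the correlation of same-numbered males were therefore not covered. Figures were drawn with matplotlib. The comparison, the classes and the gene lists were chosen with earlier results of these data known.

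The labels do not state that replicate numbers pair the males, and males of different numbers were not compared. Deviations from the cross means correlated over genes at 0.754, 0.428 and 0.162 between same-numbered DxD and DxM males, and at 0.638, 0.151 and 0.234 between MxD and MxM males.

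From the study's gene lists as used here, chromosomes were known for 2037 genes. Cell types came from the first list for 1102 genes, over which cell types were counted, and from the third for the 45 genes with names. Lists by gene symbol (Y-linked, imprinted, meiotic, antigen presentation, detoxification, respiratory and ribosomal genes, cell type markers) matched 0 members and were left out, as were promoter and other sequences. Cell types could therefore not be checked against markers. Named genes were to be those of largest difference in each class, up to 8 per direction, with the study's own genes.

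Alternatives were cyclic loess, a trend and robust prior, array weights, removal of the dimmest 25% of genes, the replicate block, an additive model, the father alone, each background alone, the methods' t-test with equal or unequal variances, and each male left out. Dnmt3a, Brwd1, Meg3, 4930402K13Rik, ENSMUSG00000026414, ENSMUSG00000079421 and ENSMUSG00000050875 were among the dimmest 25%. They therefore have no value where those genes were removed.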

Additional observations from a re-analysis of the deposited data

Results flagged for a closer look

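The paternal difference depended on the mother in 1487 genes, tested as the interaction in limma with an adjusted p under 0.05. At an unadjusted p under 0.05 there were 2396. Interactions are given as MxM minus MxD less DxM minus DxD, in log2 units.

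Among the named genes the interaction was positive for Usp48 (0.49, adjusted p = 0.00369), Dnmt3a (0.40, adjusted p = 0.00793) and Brwd1 (0.50, adjusted p = 0.00243). It was negative for Cyp17a1 (-1.68, adjusted p = 0.010) and for the X-linked genes Gm364 (-0.97), Cypt3 (-0.83), Fmr1nb (-0.66), 4930557A04Rik (-0.61), 4933400A11Rik (-0.60), 4930403L05Rik (-0.56) and 1700025D03Rik (-0.55), with adjusted p from 0.00283 for Fmr1nb to 0.0308 for 4933400A11Rik. Of the genes without a name, ENSMUSG00000026096 had -2.82, ENSMUSG00000026043 -1.51 and ENSMUSG00000026879 -1.08, and ENSMUSG00000035295 had 0.96 and ENSMUSG00000033767 0.75. ENSMUSG00000026096 was called with both mothers in the same direction, so that only the size of its step changed.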

How the results depend on the processing

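Named genes were not followed one by one in the additive model, the father-alone model, the methods' t-tests or each background alone. Elsewhere, genes called with both mothers were followed in the averaged difference only. The other genes were followed in MxM minus MxD, and Brwd1 also in the interaction. The remaining calls that define the classes, such as those with domesticus mothers, were not followed gene by gene. Under the replicate blocks, the prior, array weights, removal of dim genes, cyclic loess and males left out, the 496 values followed kept their direction. Of these, 490 kept their side of the threshold. The other 6 were all of Meg3 in MxM minus MxD: 0.19 with array weights, 0.20 with cyclic loess, and 4 with a male left out. Counts of calls were less stable. With array weights they were 2349 for the averaged difference, 2054 with domesticus mothers, 2263 for the interaction, 550 in both backgrounds and 420 limited to domesticus mothers. The averaged count was 871 in the additive model and 97 with the father alone in the model, 74.2% of them higher. The methods' t-test with unequal variances called 170 genes with domesticus mothers, 3 with musculus mothers and 0 in both (1739 and 1686 at unadjusted p under 0.05 in the single backgrounds). With equal variances it called 777 with domesticus mothers, 420 with musculus mothers and 71 in both. Each background fitted alone gave 1249 with domesticus mothers and 1048 with musculus mothers. These fits give no interaction, so the classes that need one have no value there.

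The replicate block gave 2399 averaged calls, 1584 with domesticus mothers, 2497 interactions, 510 in both backgrounds, 1104 limited to the pair with the sterile cross and 341 limited to domesticus mothers. Whether the numbers pair the males was not stated. Over all pairs of crosses, deviations of same-numbered males correlated at 0.568 to 0.756 in replicate 1. In replicates 2 and 3 they ran from -0.051 (DxM and MxM replicate 3) to 0.565 (DxM and MxD replicate 2). A block that sets replicate 1 against replicates 2 and 3, chosen after seeing the data, gave 2335, 1538, 2389, 480, 1058 and 321.

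With single males left out, the counts ran from 1060 to 1645 (averaged), 448 to 1110 (domesticus mothers), 1481 to 2158 (musculus mothers), 1083 to 1737 (interaction), 155 to 318 (both), 441 to 724 (limited to the pair with the sterile cross) and 93 to 248 (limited to domesticus mothers). Each of these fits left 2 males in the cross concerned, with the spread shared over all crosses. The shared spread and the larger variance within MxM limit every contrast with MxM.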
